A study of Mus musculus with 49 samples.

Results

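The 15 genes described here rose early after p53 activation and were back near their uninduced level by 12 h. They were chosen by measured values from the 20489 genes of the deposited tables: the mean log2 CPM at 2 h or 4 h of activation in Trim24-expressing cells lay at least 0.75 above that of uninduced cells (0 h) and reached at least 1, and the mean at 12 h lay less than 0.25 above 0 h. CPM is a gene's share of the reads of its library, in counts scaled to a common library total. The immediate early genes Atf3, Fos, Fosb, Fosl1, Jun, Junb, Egr1, Egr2, Ier2 and Ier3 were left out of the group, and 0 of these 10 would have met the rule. Early rises were common, since 1519 genes met the rule without its 12 h criterion, and the 15 members are 0.987% of these.

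RNA-seq was made from mouse embryonic stem cells of strain 129S6/SvEvTac grown in serum and leukaemia inhibitory factor. In the time course, cells with a degron tag on their own Trim24 were left uninduced (0 h) or given 1 µM doxorubicin, a DNA-damaging drug that activates p53, for 2, 4, 8 or 12 h, either alone (Trim24-expressing) or together with 500 nM dTAG13, which degrades the tagged protein (Trim24-degraded), with 3 libraries a group. Separate libraries held the same line uninduced, with or without dTAG13 (3 each), wild-type cells uninduced and activated for 4 h (2 each), and the RING-domain experiment at 4 h of activation, with 4 libraries each of Trim24-expressing, Trim24-degraded and ligase-null cells. The ligase-null cells, which the labels also call degron-tagged, carry mutated cysteines in the RING domain of Trim24 and are a different line. The lines were picked clones, and the number of clones behind a group is not given in the sources used here. Titles name the uninduced Trim24-expressing libraries untreated while their treatment label names activated p53; Mdm2, a p53 target, was at 178 to 189 CPM in them, against 177 to 186 CPM at 0 h of the time course and 930 to 989 CPM at 4 h, and they were taken as uninduced. The time course held uninduced libraries at 0 h only. Doxorubicin was given in fresh medium, and a medium change for uninduced cells is not stated. In differences from 0 h, p53 activation, fresh medium and time in culture cannot be told apart.

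Each library held 14422098 to 35185256 reads over genes, so 1 read was worth 0.03 to 0.0586 CPM. The embryonic stem cell markers Pou5f1 (944 to 1042 CPM) and Dppa5a (584 to 663 CPM) were high in each library at 0 h. At 12 h they were at 392 to 415 CPM and 425 to 508 CPM. Nanog went from 588 to 669 CPM at 0 h to 7.15 to 8.92 CPM at 12 h. Zfp42 likewise went from 1168 to 1225 CPM to 44.7 to 48.9 CPM. Esrrb went from 408 to 431 CPM to 18 to 20.2 CPM, and Sox2 from 247 to 293 CPM to 29.4 to 35.1 CPM. Over the same hours the summed level of 16 markers of the two-cell-like state went from 63.8 to 75.6 CPM to 1588 to 1739 CPM, and that of 16 mesoderm and primitive streak markers from 20.6 to 26 CPM to 86 to 93.1 CPM, of which 9 were under 1 CPM at 0 h and 4 at 12 h. The summed level of 16 markers of neuroectoderm and neurons went from 213 to 238 CPM to 125 to 138 CPM. That of 17 fibroblast or feeder markers went from 865 to 910 CPM to 623 to 795 CPM. For 17 trophoblast markers it was 147 to 149 CPM and then 198 to 206 CPM. For 17 primitive endoderm markers it was 1947 to 1977 CPM and then 1991 to 2038 CPM. The part of these shifts in the values of the members was not tested. Trim24 RNA (119 to 123 CPM at 4 h, and 138 to 145 CPM with dTAG13) does not check the degradation, which acts on the protein. In the RING-domain experiment replicate 7 of the Trim24-expressing group stood apart: counts differed between it and the other 3 by a chi-square per gene of 26.7 to 27.6, against at most 4.59 among those, and results that rest on it are given with and without it.

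p53 is a transcription factor that is held low by the ubiquitin ligase Mdm2 and is released by DNA damage, after which it binds and activates genes of cell cycle arrest, repair and cell death. Classical immediate early genes such as Fos and Jun are known for brief pulses of RNA after serum, but here 5 of the 10 left out met the early criteria and their change from 0 h was larger at 12 h, the highest being 4.07 on the log2 scale. Trim24 is a cofactor of p53 with a RING domain and histone-binding domains, and is known as a ligase that can modify p53.

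The members fall into a few kinds of genes by what their products do. Igll1 encodes a part of the surrogate light chain of the pre-B cell receptor, Tgtp1 and Tgtp2 interferon-inducible GTPases, and Gzmm granzyme M, a serine protease of cytotoxic lymphocytes. Dok1 encodes a docking adaptor downstream of receptor tyrosine kinases, Map3k8 a kinase (Tpl2) upstream of the MEK-ERK cascade, Pik3c2b a class II phosphoinositide 3-kinase, and Kremen2 a receptor for the Wnt antagonists of the Dickkopf family. Ddias is named as a DNA damage-induced apoptosis suppressor. Muc3 encodes a membrane mucin, Podnl1 a leucine-rich matrix proteoglycan, Cmya5 a large muscle protein, Slc25a34 a mitochondrial carrier and Olfr307 an olfactory receptor. AA467197 completes the group. None of the 15 is in any of the 32 gene lists used here, which include 53 measured p53 targets. Of these targets 34 met the early criteria. Any that also returned below the 12 h limit would be a member, so that 0 did only repeats their absence from the group.

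Tgtp1 and Tgtp2 are near-identical copies. Their longest annotated transcripts shared 99.8% of 2811 aligned positions, and a read that matched both was assigned by the authors to either at random. Reads of either copy can thus be counted in the other, so they are also given summed. Olfr56 overlaps both on the opposite strand, from which reads cannot be told apart when strand is not used, and was at 0 CPM at 0 h. On GRCm38 (GENCODE M21) they lie on the minus strand of chromosome 11 at chr11:48985327-48994172 and chr11:49057194-49064206. Their RefSeq promoter windows (GRCm38.p6) share a longest run of 24 bases that reaches into the core of the interferon-stimulated response element, searched on both strands as GAAA, any 2 bases and GAAA. The stretches printed here end 12 bases before the annotated start, chr11:48992259-48992496 and chr11:49064225-49064462 on the minus strand, with that core in capitals, and are shown because both copies are members and hold it.
Tgtp1: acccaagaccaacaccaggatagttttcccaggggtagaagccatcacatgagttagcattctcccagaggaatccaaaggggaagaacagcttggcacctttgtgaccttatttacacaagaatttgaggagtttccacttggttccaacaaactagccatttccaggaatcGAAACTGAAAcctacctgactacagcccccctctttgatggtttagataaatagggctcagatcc
Tgtp2: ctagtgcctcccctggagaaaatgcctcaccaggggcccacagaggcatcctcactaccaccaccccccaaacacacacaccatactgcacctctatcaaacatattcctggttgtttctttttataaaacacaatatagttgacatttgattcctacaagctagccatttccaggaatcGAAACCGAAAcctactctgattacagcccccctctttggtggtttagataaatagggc

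This core was chosen after the windows had been read, and it lay in the windows of 4 of the 12 members that have one (Kremen2, Olfr307, Tgtp1 and Tgtp2) and in those of 3.46% of the 27025 genes of the table. The windows of the copies Tgtp1 and Tgtp2 share the run that reaches into the core, so their matches are not separate. Of the motifs set for the search (both strands, 250 bases before the start), the p53 decamer, the CArG box of serum response, the cyclic AMP response element TGACGTCA and the heat shock element lay in 0 of the 12, against 8.2%, 1.62%, 1.77% and 7.73% of all genes. The AP-1 site TGANTCA lay in 1 of the 12 and in 7.82% of all genes. This was AA467197, in a stretch that also holds the E-box CACGTG, printed here with both motifs in capitals since no other window of the 12 has an AP-1 match, from chr2:122637755-122637849 on the plus strand, an intron of the GENCODE gene upstream of its RefSeq start.
AA467197: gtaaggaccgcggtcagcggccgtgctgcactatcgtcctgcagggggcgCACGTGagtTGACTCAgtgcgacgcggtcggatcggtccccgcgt

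The SP site GGGCGG lay in 3 of the 12, against 35.4% of all genes and 62.3% of the 1200 genes with the early rise that have a window, and CCAAT in 4 of the 12, against 37.5% of all genes. These matches describe letters only. By the median the members were also short, at 6539 bases for the gene span and 2938 bases for the exons. These medians were 23971 and 4450 bases for the 1509 annotated genes with the early rise. For the 15542 annotated genes tested between 0 and 4 h they were 23615 and 4275.5 bases. Cmya5 (104012 bases) and Pik3c2b (63021 bases) spanned more than these medians. The sets also differed in level, with a median at 0 h of 1.51, 2.98 and 17.8 CPM in that order.

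In the time course with Trim24, the values that chose the members were as follows. Of 2 and 4 h, the rise was larger at 4 h for 13 members and at 2 h for Ddias and Gzmm. The median rise over 0 h on the log2 scale was 0.69 at 2 h, 0.97 at 4 h, 0.64 at 8 h and -0.03 at 12 h. Over the same hours the median of the 1519 genes with the early rise went from 0.53 at 2 h to 1.36 at 4 h, 2.33 at 8 h and 2.46 at 12 h, while the median of all genes passing the filter stayed between -0.01 and 0.04. Most members were expressed at a low level, 12 of them under 4 CPM at 0 h, and the prior count of 8 reads in the deposited values makes their log2 differences smaller than the ratio of their CPM.

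**Figure D1:**
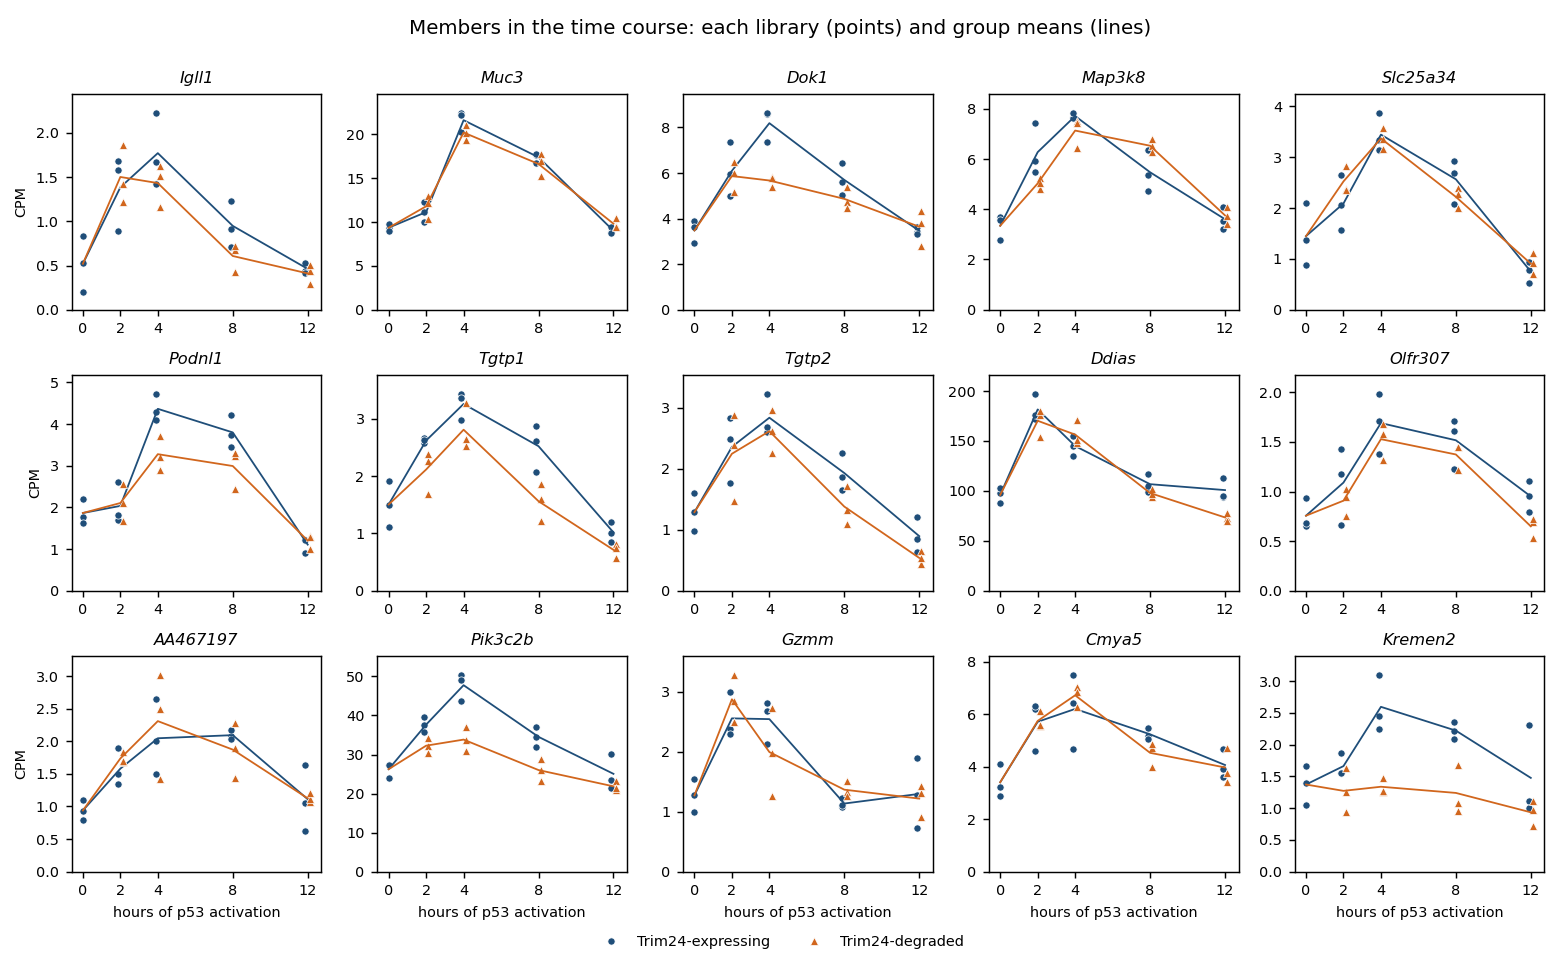
CPM of the 15 members by hours of p53 activation, with Trim24-expressing libraries as circles, Trim24-degraded libraries as triangles, and lines through the group means that both start at the uninduced libraries (0 h). Each Trim24-expressing line has its top at 2, 4 or 8 h and ends near or below its start; the Trim24-degraded line of Kremen2 stays between 0.934 and 1.37 CPM.

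Ddias was by far the most abundant member per length, at 49.1 CPM per kilobase of exon at its highest mean. It was at 97.6, 87.6 and 103 CPM at 0 h, 172, 176 and 197 CPM at 2 h, 135, 155 and 145 CPM at 4 h, 117, 98.4 and 105 CPM at 8 h and 113, 94 and 95.1 CPM at 12 h. Its top was at 2 h, and 16.6% of the rise was left at 8 h. Its log2 rise was 0.92 at 2 h. It lies at chr7:92857525-92874247 on the minus strand, 222 bases from Prcp on the other strand, which went up by 0.83 at 4 h and 1.58 at 12 h.

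Gzmm, the other member with its larger rise at 2 h, had 2.38, 2.99 and 2.29 CPM at that time after 1.55, 1.28 and 0.993 CPM at 0 h. At 4 h it was still at 2.12, 2.82 and 2.68 CPM, and at 8 h it was at 1.07, 1.23 and 1.11 CPM, within the range of 0 h. The 12 h libraries, at 0.723, 1.89 and 1.27 CPM, spanned more than those of 0 h.

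Pik3c2b was the second most abundant by CPM. It had 24, 27.3 and 27.4 CPM at 0 h, 39.7, 37.5 and 35.7 CPM at 2 h, 50.3, 43.8 and 49.2 CPM at 4 h, 37.1, 32 and 34.5 CPM at 8 h and 21.6, 30 and 23.6 CPM at 12 h. Its log2 rise was 0.85 at 4 h, and the 8 h libraries lay between those of 4 h and 0 h. Pik3c2b lies at chr1:133045667-133108687, 15105 bases from Mdm4, the p53 inhibitor, whose RNA differed from 0 h by 0.40 at 2 h, 0.13 at 4 h and -0.17 at 12 h.

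Muc3 rose late and sharply. It was at 9.32, 9.76 and 8.99 CPM at 0 h and 12.3, 9.99 and 11.1 CPM at 2 h, then at 22.4, 20.2 and 22.3 CPM at 4 h, 17.7, 16.7 and 17.8 CPM at 8 h and 8.87, 9.41 and 8.74 CPM at 12 h. Most of its rise of 1.18 came after 2 h, 73.9% of it was left at 8 h, and it was gone at 12 h. Podnl1 took a like course, with a log2 rise of 0.10 at 2 h and 1.09 at 4 h. It was at 2.19, 1.77 and 1.63 CPM at 0 h, 4.1, 4.71 and 4.28 CPM at 4 h, 4.22, 3.44 and 3.73 CPM at 8 h and 1.21, 0.894 and 1.22 CPM at 12 h. All 3 libraries of Podnl1 at 12 h lay below all 3 of 0 h.

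Igll1 had the largest rise of the group, 1.33 on the log2 scale at 4 h, from the lowest level. Its libraries held 4, 17 and 9 reads at 0 h and 46, 29 and 25 reads at 4 h, that is 0.199, 0.834 and 0.525 CPM and then 2.22, 1.67 and 1.43 CPM. At 12 h it was at 0.434, 0.421 and 0.53 CPM, within the range of 0 h. Vpreb1, which encodes the other part of the surrogate light chain and lies 4417 bases away, differed from 0 h by 0.90 at 2 h, 0.89 at 4 h and 0.82 at 12 h, so the neighbour did not return.

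Among the signalling genes, Map3k8 and Dok1 had similar courses. Map3k8 was at 2.79, 3.68 and 3.56 CPM at 0 h, 7.68, 7.64 and 7.82 CPM at 4 h and 3.52, 3.21 and 4.08 CPM at 12 h. Dok1 was at 2.94, 3.88 and 3.62 CPM at 0 h, 8.59, 7.36 and 8.62 CPM at 4 h and 3.42, 3.63 and 3.34 CPM at 12 h. Of their log2 rises of 1.13 and 1.16 at 4 h, 57.8% and 56.9% were left at 8 h. Dok1 is on the minus strand of chr6:83030934-83033471. Loxl3, 701 bases from it on the other strand, met the rule but for its level, which reached a log2 of 0.82.

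Slc25a34 was at 2.09, 1.37 and 0.876 CPM at 0 h, 3.86, 3.33 and 3.14 CPM at 4 h and 0.771, 0.946 and 0.53 CPM at 12 h. The summed copies of Tgtp1 and Tgtp2 went from 2.79 ± 0.359 CPM at 0 h to 4.98 ± 0.522 at 2 h, 6.1 ± 0.0949 at 4 h, 4.45 ± 0.254 at 8 h and 1.91 ± 0.468 at 12 h (SD, n = 3). With Podnl1 these are the members that ended farthest under 0 h, at a 12 h difference of -0.67 for Slc25a34, -0.60 for Podnl1, -0.42 for Tgtp1 and -0.40 for Tgtp2. For the other 11 members this difference lay between -0.08 and 0.24.

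Cmya5, Olfr307, AA467197 and Kremen2 sat near the limits of the rule. Cmya5 was at 2.89, 3.24 and 4.09 CPM at 0 h, 4.68, 6.44 and 7.48 CPM at 4 h and 3.91, 4.68 and 3.6 CPM at 12 h. Olfr307 was at 0.648, 0.687 and 0.934 CPM at 0 h and 1.98, 1.38 and 1.71 CPM at 4 h. The smallest rises inside were those of Kremen2 (0.78) and Cmya5 (0.79), and the largest outside those of P2ry2 (0.74) and Kbtbd11 (0.74). At 12 h, Cmya5 (0.24) and Olfr307 (0.23) were the last inside and Zfp653 (0.26) and Zfp112 (0.27) the first outside. By level, Olfr307 (1.02) and Igll1 (1.07) were the last inside and Loxl3 (0.82) and Prr22 (0.81) the first outside. AA467197 had its highest mean at 8 h, where its libraries were at 2.08, 2.03 and 2.17 CPM after 1.5, 2.64 and 2 CPM at 4 h. Its 12 h libraries, at 1.06, 0.631 and 1.64 CPM, overlapped those of 0 h at 1.1, 0.785 and 0.934 CPM. When each of the 12 libraries at 0, 2, 4 and 12 h was left out in turn, 9 of the 15 members met the rule each time and Cmya5 met it in 7 of 12. Those that missed it at least once were Cmya5, Olfr307, AA467197, Kremen2, Igll1 and Gzmm.

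**Figure D2:**
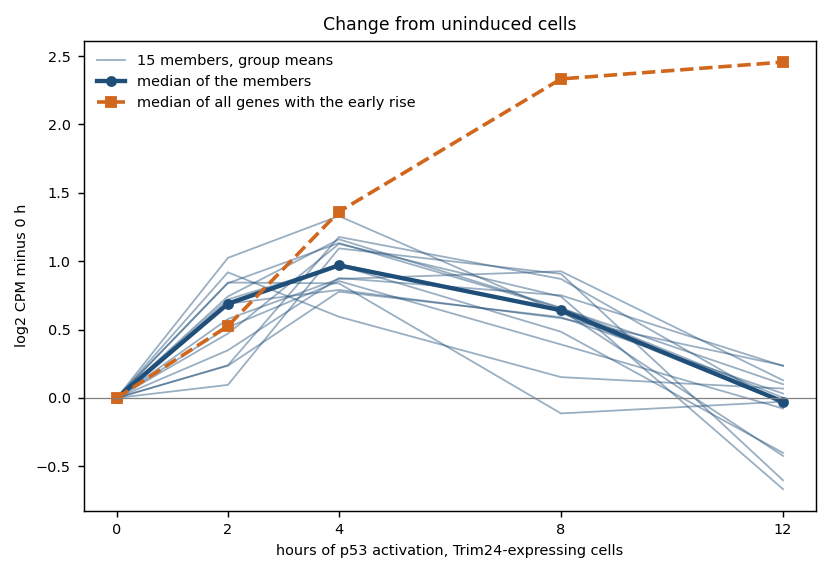
Difference in mean log2 CPM from 0 h in Trim24-expressing cells by hours of activation, for each member (thin lines), their median (circles) and the median of the 1519 genes with the early rise (squares). The members' median goes from 0.97 at 4 h to -0.03 at 12 h while that of the early genes reaches 2.46; the members were chosen by these values.

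Return to the uninduced level depends on how libraries are scaled. The TMM factors in the deposited values made the effective library 0.927 to 0.933 of the read total at 0 h and 1.14 to 1.17 of it at 12 h. With scaling to the read total alone, which shifts 12 h upward against 0 h, 8 genes met the rule, of which 7 are members (Igll1, Slc25a34, Podnl1, Tgtp1, Tgtp2, Pik3c2b and Gzmm). With the median of each library set equal, 28 met it, of which 13 are members.

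The rise was tested in wild-type cells, whose libraries the rule did not use. After 4 h of activation 8 of the 15 members were higher and 0 lower (limma, with limits of 0.01 on the adjusted p and of 0.75 on the absolute log2 fold change), where 7.99% of the 16448 genes tested were called higher and 2.27% lower. All 15 members lay above the uninduced libraries without overlap, as did 31.8% of all genes tested, with a median log2 fold change of 0.78 against -0.02 over all genes tested. Among 53 p53 targets 27 were called higher and 0 lower in the same comparison.

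Muc3 had the largest rise in wild-type cells, from 5.54 and 5.4 CPM to 13.9 and 12.7 CPM (log2 fold change 1.23 ± 0.12 (SE), adjusted p = 5.65e-22 by limma). Slc25a34 rose from 0.619 and 1.02 CPM to 2.21 and 2.32 CPM (1.18 ± 0.20, adjusted p = 7.34e-08). Cmya5, the muscle protein gene, rose from 1.95 and 2.16 CPM to 4.19 and 4.11 CPM (0.90 ± 0.17, adjusted p = 4.48e-07), although its place in the group rested on single libraries of the time course. Tgtp2 (0.90 ± 0.22), Podnl1 (0.88 ± 0.19) and Map3k8 (0.87 ± 0.15) rose by similar amounts, and Pik3c2b (0.78 ± 0.10) and Olfr307 (0.79 ± 0.24) passed the fold limit closely. Olfr307 rested on 6 to 11 reads uninduced and 19 to 26 activated. Its log2 fold change lay between 0.48 and 1.45 over the alternatives, under the fold limit in some. The summed copies of Tgtp1 and Tgtp2 were at 1.27 and 1.41 CPM uninduced and at 2.65 and 2.73 CPM activated.

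The other 7 were at positive log2 fold changes that missed a limit. Dok1 (0.72 ± 0.13, adjusted p = 2.57e-07), Gzmm (0.69 ± 0.18, adjusted p = 0.000693) and Ddias (0.37 ± 0.09, adjusted p = 8.61e-05) missed the fold limit only. Ddias was at 131 and 115 CPM uninduced and 166 and 152 CPM activated, a smaller difference than at 4 h of the time course. AA467197, Tgtp1, Kremen2 and Igll1 had adjusted p-values of 0.0128, 0.0428, 0.0411 and 0.1. With 2 libraries a group single libraries decided the count: it was 1 without replicate 1 of the activated group, which kept Muc3 alone, and 4 without replicate 1 of the uninduced group. With quantile normalization it was 3.

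The return was tested in Trim24-degraded cells, which the rule did not use either. Between 4 and 12 h of activation 10 of the 15 members fell and 0 rose, where 14.4% of the 16715 genes tested were called lower and 21.6% higher. The 12 h libraries lay below all 4 h libraries for 14 members, Gzmm being the exception, and for 36.3% of all genes tested, and the median log2 fold change was -0.91 against 0.05 over all genes tested. Between 2 and 12 h 6 members fell and 0 rose, where 19.9% of 16499 genes were called lower and 28% higher. In total 11 members fell from 2 h, from 4 h or from both. Of 53 p53 targets, 13 rose and 2 fell between 4 and 12 h, and of the 10 immediate early genes set aside 8 rose and 0 fell.

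Tgtp2 and Slc25a34 had the largest falls. Tgtp2 was at 2.62, 2.96 and 2.26 CPM at 4 h and 0.435, 0.647 and 0.53 CPM at 12 h of Trim24-degraded activation (log2 fold change -1.73 ± 0.18, adjusted p = 5.45e-09 by limma). Slc25a34 was at 3.36, 3.17 and 3.58 CPM and then 1.11, 0.693 and 0.916 CPM (-1.57 ± 0.17, adjusted p = 1.14e-08). The same comparison gave -1.56 ± 0.18 for Tgtp1 and -1.22 ± 0.20 for Igll1. Podnl1 fell by the same amount as Igll1 (-1.22 ± 0.17), from 3.2, 2.9 and 3.73 CPM to 1.3, 1.29 and 1.01 CPM.

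Ddias fell from 148, 171 and 151 CPM at 4 h to 72.6, 69.5 and 78.1 CPM at 12 h (-1.09 ± 0.06, adjusted p = 8.27e-14) and from 176, 180 and 154 CPM at 2 h (-1.21 ± 0.07, adjusted p = 1.7e-12). These 12 h libraries lay below all 0 h libraries of the time course. Muc3 fell from 19.4, 20.1 and 21.1 CPM to 9.51, 9.42 and 10.5 CPM (-1.02 ± 0.09, adjusted p = 2.91e-10). Olfr307 (-0.91 ± 0.19), Map3k8 (-0.87 ± 0.13) and AA467197 (-0.80 ± 0.20) passed as well. Gzmm fell between 2 and 12 h, from 3.27, 2.85 and 2.5 CPM to 1.3, 1.43 and 0.916 CPM (-1.04 ± 0.18, adjusted p = 2.2e-05), but its 4 h libraries were spread over 2.73, 1.27 and 1.98 CPM.

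Dok1, Pik3c2b, Cmya5 and Kremen2 did not pass in either comparison. Pik3c2b (-0.62 ± 0.08, adjusted p = 2.12e-07), Dok1 (-0.61 ± 0.14, adjusted p = 0.000506) and Cmya5 (-0.72 ± 0.13, adjusted p = 2.93e-05) were below the fold limit between 4 and 12 h. Kremen2 was at -0.40 ± 0.19 (adjusted p = 0.0568). With scaling to the read total 6 members fell between 4 and 12 h and 0 rose; this scaling moves the median of all genes in that comparison from 0.05 to 0.31.

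**Figure D3:**
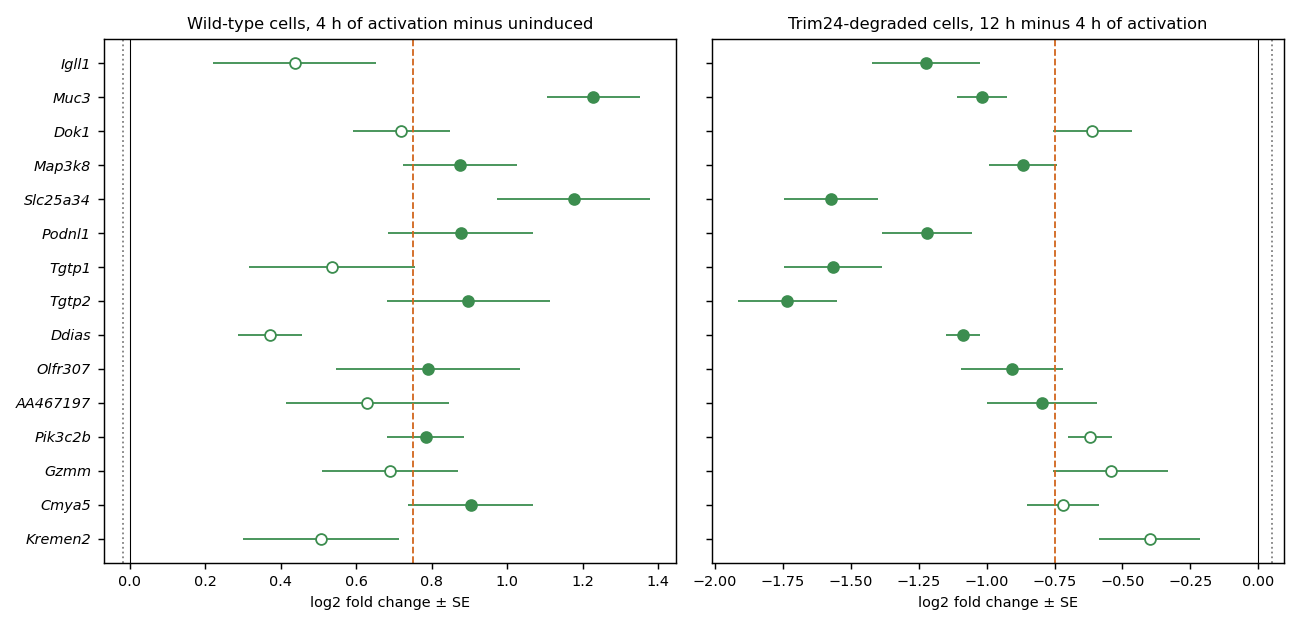
Log2 fold change with its SE (limma) of each member in wild-type cells after 4 h of activation (left) and in Trim24-degraded cells from 4 to 12 h (right), filled where the gene passed both limits; the dashed line marks the fold limit of 0.75 and the dotted line the median of all genes. All members are right of 0 on the left, 8 of them filled, and left of 0 on the right, 10 of them filled.

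The steps within Trim24-degraded cells were compared in tests added after seeing the data. From 2 to 4 h Muc3 passed both limits (0.76 ± 0.10, adjusted p = 2.22e-07), from 13, 12.1 and 10.3 CPM, where 7.5% of genes tested were called higher and 2.5% lower. It was under the fold limit with quantile normalization (0.742) and with median centring (0.748), without replicate 3 at 2 h and without replicate 3 at 4 h. Map3k8 (0.47 ± 0.12, adjusted p = 0.00213) and Podnl1 (0.57 ± 0.17, adjusted p = 0.00635) were under the fold limit in the same step. From 4 to 8 h Igll1 (-0.90 ± 0.21, adjusted p = 6.56e-05) and Tgtp2 (-0.79 ± 0.18, adjusted p = 5e-05) fell, where 8.46% were called lower and 15.5% higher. From 8 to 12 h Podnl1 (-1.10 ± 0.18, adjusted p = 3.5e-08), Slc25a34 (-1.04 ± 0.20, adjusted p = 1.61e-06), Tgtp2 (-0.95 ± 0.22), Tgtp1 (-0.84 ± 0.21) and Olfr307 (-0.78 ± 0.22, adjusted p = 0.00128) fell, where 1.47% were called lower and 4.91% higher. Podnl1, at 3.2, 2.9 and 3.73 CPM at 4 h and 3.24, 2.44 and 3.31 CPM at 8 h, thus fell after 8 h, while Igll1 was at 1.63, 1.16 and 1.51 CPM and then 0.424, 0.674 and 0.725 CPM.

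Trim24 loss was compared at 8 h of activation, the hour of the time course the rule did not use. Of the 15 members 0 were higher and 0 lower by limma, where 1.14% of 17424 genes were called higher and 0.448% lower. An unadjusted p under 0.05 was found for 5 members with lower and 0 with higher values, against 15.4% of all genes with lower and 7.34% with higher values, and limma-voom on recovered reads also called 0. Kremen2 came nearest, at 2.08, 2.36 and 2.22 CPM with Trim24 and 0.955, 1.09 and 1.68 CPM without it, groups that do not overlap (-0.72 ± 0.19, adjusted p = 0.00439). Pik3c2b was at 37.1, 32 and 34.5 CPM with Trim24 and 23.1, 26 and 28.9 CPM without it (-0.41 ± 0.10, adjusted p = 0.000595). Both differences were short of the fold limit.

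In uninduced cells 0 members were called on Trim24 loss by limma, where 0.0781% of 15360 genes were called higher and 0% lower, and limma-voom also called 0. An unadjusted p under 0.05 was found for 0 members, against 4.43% of all genes with higher and 3.37% with lower values. Kremen2 differed by -0.03 ± 0.17 and Pik3c2b by -0.14 ± 0.08.

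In the RING-domain experiment Tgtp1 fell on Trim24 loss and 0 members rose, where 0.135% of 16313 genes were called lower and 1.01% higher. Tgtp1 was at 1.29, 1.51, 1.51 and 2.05 CPM with Trim24 and 0.861, 0.596, 0.548 and 0.813 CPM without it (-0.87 ± 0.18, adjusted p = 0.00053 by limma), and at -0.76 with an adjusted p of 0.00288 without the replicate that stood apart. Tgtp2 differed by -0.29 ± 0.19, and the sum of the copies was 2.51 ± 0.202 CPM with Trim24 and 1.39 ± 0.214 CPM without it (SD, n = 4).

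Kremen2 was at 3.57, 2.82, 3.38 and 2.22 CPM with Trim24 and 1.02, 1.91, 2.23 and 1.58 CPM without it in that experiment (-0.73 ± 0.17, adjusted p = 0.00209), under the fold limit. Without replicate 7 of the Trim24-expressing group, which was its lowest library, the difference was -0.85 and passed (adjusted p = 0.000443). Pik3c2b did not overlap between the groups, at 50.6, 49, 48.9 and 47.1 CPM with Trim24 and 33.2, 34.6, 32.2 and 33.4 CPM without it (-0.55 ± 0.06, adjusted p = 3.96e-09), again under the fold limit. Muc3 (0.56 ± 0.10, adjusted p = 8.69e-05) and Cmya5 (0.47 ± 0.12, adjusted p = 0.00432) were apart in the other direction. Muc3 was at 7.13, 5.3, 6.81 and 6.43 CPM with Trim24 and 8.71, 9.85, 9.82 and 9.89 CPM without it. In the time course Muc3 differed on Trim24 loss by -0.09 at 4 h, where there is no test. At 8 h the difference was -0.07 ± 0.10 (adjusted p = 0.778 by limma).

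At 2, 4 and 12 h of the time course the Trim24-expressing libraries entered the rule, so Trim24 loss there is a description. Kremen2 in Trim24-degraded cells was at 0.942, 1.63 and 1.25 CPM at 2 h, 1.26, 1.48 and 1.27 CPM at 4 h and 1.11, 0.97 and 0.723 CPM at 12 h, after 1.05, 1.67 and 1.4 CPM at 0 h. With Trim24 it was at 3.09, 2.24 and 2.45 CPM at 4 h. It was the member with no rise over 0 h at 4 h in these cells (-0.02), where the other 14 were between 0.36 and 1.10 above 0 h. At 4 h Pik3c2b was at 36.9, 30.9 and 33.6 CPM without Trim24 and Dok1 at 5.41, 5.81 and 5.8 CPM, differences of -0.49 and -0.50 from Trim24-expressing cells.

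Ligase-null cells were compared with the same 4 Trim24-expressing libraries. Kremen2 and Tgtp1 were lower and Slc25a34 was higher, where 2.28% of 17100 genes were called lower and 4.67% higher. Kremen2 was at 1.26, 1.51, 1.15 and 1.41 CPM (-0.98 ± 0.17, adjusted p = 2.46e-05 by limma) and Tgtp1 at 0.746, 0.312, 0.75 and 0.849 CPM (-0.95 ± 0.21, adjusted p = 0.00052). Tgtp2 differed by -0.07 ± 0.20 (adjusted p = 0.809). The sum of the copies was 1.52 ± 0.248 CPM in ligase-null and 2.51 ± 0.202 CPM in Trim24-expressing cells (SD, n = 4). Slc25a34 was at 2.66, 2.34, 2.6 and 2.4 CPM, against 1.65, 1.26, 1.25 and 1.11 CPM in Trim24-expressing cells (0.78 ± 0.17, adjusted p = 0.0004). Without replicate 7 Slc25a34 was at 0.72, under the fold limit, while Kremen2 (-1.10) and Tgtp1 (-0.84) passed.

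Of the others, Dok1 was at 6.38, 5.82, 6.6 and 6.27 CPM in ligase-null cells and 10.1, 9.78, 10.1 and 8.77 CPM in Trim24-expressing cells (-0.60 ± 0.10, adjusted p = 1.63e-05). In Trim24-degraded cells it overlapped the control (8.49, 11, 9.6 and 7.49 CPM). Pik3c2b was at 32.2, 34.2, 31.3 and 31 CPM (-0.60 ± 0.06, adjusted p = 3.64e-09), a range that overlaps that of the Trim24-degraded libraries. Both were under the fold limit. Muc3 (0.63 ± 0.11, adjusted p = 4.58e-05), Cmya5 (0.54 ± 0.13, adjusted p = 0.00155), Map3k8 (0.44 ± 0.13, adjusted p = 0.00932) and Ddias (0.24 ± 0.05, adjusted p = 0.000472) were higher in ligase-null cells and likewise under it. With Slc25a34, 5 members were higher without overlap, against 14.5% of all genes tested, and 4 were lower, against 18.6%. Without replicate 7 of the Trim24-expressing group Map3k8 was at 0.33 (adjusted p = 0.0406 by limma). The ligase-null line is a different line, and its mutation and other differences between the lines cannot be told apart.

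**Figure D4:**
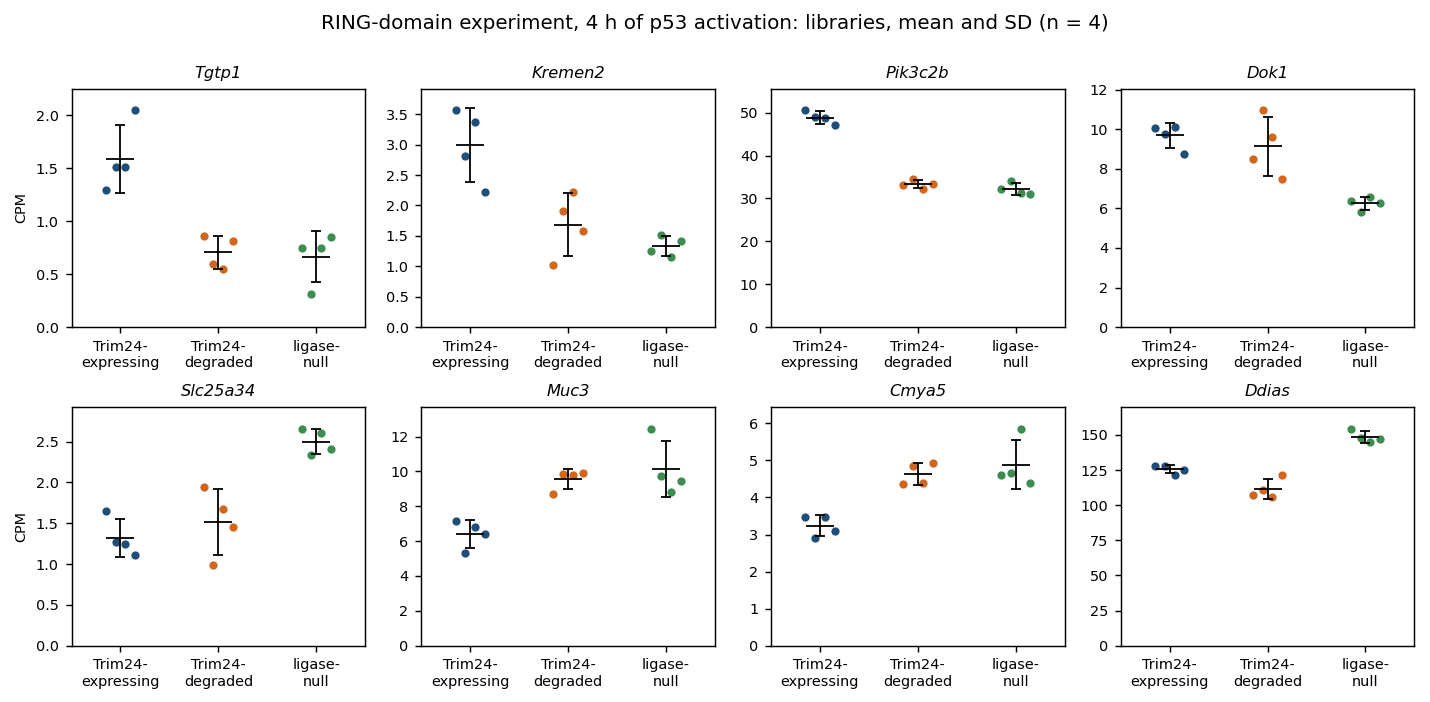
CPM of 8 members in each library of the RING-domain experiment at 4 h of activation, with the mean and SD of 4 libraries as bars. Tgtp1, Kremen2 and Pik3c2b have lower means in both Trim24-degraded and ligase-null cells, which share their 4 control libraries; Dok1 is lower and Slc25a34 and Ddias are higher in ligase-null cells, and Kremen2, Tgtp1 and Slc25a34 hold the differences that passed both limits.

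Levels differed between experiments. In the separate uninduced libraries 3 members lay above all 0 h libraries of the time course and 5 below them, as did 28.5% and 26.5% of all genes above the floor. Map3k8 was at 6.42, 5.3 and 5.61 CPM there, above its 0 h level of the time course. In the RING-domain experiment, which has no uninduced libraries, 8 members lay below all Trim24-expressing libraries of the time course at the same hour, against 20.3% of all genes. The 0 h and 4 h libraries of the time course entered the rule, which favours low values at 0 h and high ones at 4 h. The shares of all genes, which were not so chosen, are thus no measure of the counts against the time course. In the Trim24-expressing libraries of the RING-domain experiment 11 members lay above the separate uninduced libraries, against 32.6% of all genes. Muc3, Map3k8, Slc25a34 and Tgtp2 were the others. Muc3 had 6.42 CPM on average at 4 h of the RING-domain experiment and 6.28 CPM in the separate uninduced cells, against 21.6 CPM at 4 h of the time course, while Mdm2 was at 862 to 910 CPM in the same RING-domain libraries. The 4 h groups carry the same treatment. In their difference, experiment and the choice of members by time course values cannot be told apart. Nor can experiment and condition between the RING-domain and the uninduced libraries.

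Gene lists related to the members' roles were counted in Trim24-degraded cells between 4 and 12 h. Of 22 interferon-stimulated genes tested 7 fell and 3 rose (median log2 fold change -0.22, against 0.05 over all genes). Of 25 Wnt pathway genes 14 rose and 3 fell (median 0.76), and of 23 genes of the NF-kB response and inflammation 8 rose and 2 fell (median 0.20). Of 20 genes of FGF and ERK feedback 5 rose and 4 fell (median 0.17). Over all genes tested in this comparison 21.6% rose and 14.4% fell. In wild-type cells at 4 h the same lists held 5, 6, 3 and 1 genes that rose and 1, 2, 0 and 5 that fell, among 22, 26, 21 and 21 tested. There 7.99% of all genes tested rose and 2.27% fell. The 1102 olfactory receptor genes together went from 73.6 to 79.5 CPM at 0 h to 163 to 201 CPM at 12 h with Trim24, while Olfr307 was at 0.648, 0.687 and 0.934 CPM and then 1.11, 0.789 and 0.954 CPM.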

How the data were processed

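RNA-seq of mouse embryonic stem cells (49 libraries in 16 groups, 4 tables) was analysed from the deposited log2 values. Per the labels and the study's methods, demultiplexing was by bcl2fastq (2.17 or 2.20), alignment to mm10 by STAR and counting per protein-coding gene by featureCounts; the authors deposited log2 CPM after TMM normalization in edgeR with a prior count of 8; genes named Gm followed by a number are not in the tables. The study's methods name default settings for featureCounts, which do not use strand, so that reads of a gene and of one overlapping it on the other strand cannot be told apart. Reads were recovered from the deposited values, and within 0.01 of a whole number 100% of them came out whole; CPM in the text is without the prior count. Library totals ranged from 14422098 to 35185256 reads; 1 read was worth 0.03 to 0.0586 CPM, so members near 1 CPM rest on few reads.

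Groups were taken from the sample labels. They were compared within a table with limma 3.58.1 in R 4.3.3 (lmFit, eBayes with trend and robust), with Benjamini-Hochberg adjustment over all genes tested, on genes more than 0.5 above the floor of -1.48 in a number of libraries equal to the size of the smaller group or more. The limits for a call were 0.01 for the adjusted p and 0.75 for the size of the log2 fold change. All 15 members passed the filter in the 10 comparisons. Values of 0, 2, 4 and 12 h with Trim24, and any comparison with them, have no test. The members, the gene lists and the tests were chosen with earlier results of these data known. The rule for named genes took the 12 members with the largest rise, up to 6 members called in each direction of a comparison, the pairs of genes next to each limit of the rule, and checks of the labels; other members and the neighbouring genes were named after their values were seen. p-values measure the spread between these libraries. The method was tested on simulated data. Genes with few reads were not among those changed there, and the changes were larger than many of those of the members. The simulation therefore does not cover such genes and changes.

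Alternatives were other scalings, filters, limma without trend and robust, limma-voom on recovered reads, an adjusted p under 0.05 with no fold limit, a fit on every group of the table, a replicate block, other limits of the rule, and each library left out. Scaling to the read total and the steps between 2, 4, 8 and 12 h were added after seeing the data. Replicate numbers were not used to pair samples in the main fits. Coordinates are from GENCODE M21 (GRCm38), in which all 15 members were found, and promoter windows from RefSeq (GRCm38.p6), which held 12 of them.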

Additional observations from a re-analysis of the deposited data

Results flagged for a closer look

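Among 45 sets of 4 libraries of the members, 3 held 1 library far from the other 3; chance flags about 1 in 20 such groups. Muc3 was at 8.71 CPM in replicate 4 of the Trim24-degraded libraries of the RING-domain experiment and at 9.82 to 9.89 CPM in the others. AA467197 was at 2.45 CPM in replicate 6 of that group, against 1.67 to 1.71 CPM, and at 1.82 CPM in replicate 1 of the ligase-null group, against 2.34 to 2.36 CPM.

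Cmya5 lay lower on Trim24 loss in every library at 8 h of the time course (log2 fold change -0.20 ± 0.14, adjusted p = 0.422 by limma). It lay higher in every library at 4 h of the RING-domain experiment (0.47 ± 0.12, adjusted p = 0.00432). At 4 h of the time course, where there is no test, it differed by 0.13, the same sign as in the RING-domain experiment. The difference between the 8 h and the RING-domain values was not tested.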

How the results depend on the processing

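The rule found 6 genes with a rise of at least 1, 8 with a 12 h difference under 0, 7 with a level of at least 2, 28 with median centring, 8 with scaling to the read total, and 13 to 19 with a library left out. Members called in wild-type cells numbered 3 with quantile normalization, 14 with no fold limit and 1 to 9 with a library left out, where 1 library stands alone in its group and is assumed to vary like the other group. Between 2 and 12 h without Trim24 they numbered 13 with quantile normalization, 13 with no fold limit and 6 to 7 with a library left out. Between 4 and 12 h they numbered 6 with scaling to the read total and 9 to 11 with a library left out. On Trim24 loss at 8 h they numbered 1 (Kremen2) with quantile normalization, 3 with no fold limit and 0 to 1 with a library left out. In uninduced cells the count stayed at 0 with each library left out. In the RING-domain experiment Trim24 loss called 2 with median centring, scaling to the read total or limma-voom, 6 with no fold limit and 1 to 2 with a library left out, and the ligase-null comparison 9 with no fold limit and 2 to 3 with a library left out. From 2 to 4 h without Trim24 the count was 0 with quantile normalization or median centring, 6 with no fold limit and 0 to 1 with a library left out. From 4 to 8 h it was 6 with quantile normalization, 4 with median centring, 0 with scaling to the read total, 8 with no fold limit and 1 to 3 with a library left out. From 8 to 12 h it was 11 with no fold limit and 4 to 6 with a library left out. Muc3 reversed with scaling to the read total, to 0.097 between 2 and 12 h and 0.027 between 4 and 8 h; the cause of these changes was not tested.

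With a replicate block the counts were those reported, 8 in wild-type cells, 10 between 4 and 12 h and 6 between 2 and 12 h without Trim24, 1 in the RING-domain experiment and 0 for Trim24 loss at 8 h and in uninduced cells. No paired analysis was possible for ligase-null cells because they share 1 replicate number with the Trim24-expressing group. Same-numbered libraries had correlations of their deviations from -0.21 to 0.20. With so few libraries a group these cannot decide whether the numbers mark pairs. Igll1, at 4 to 46 reads at 0 and 4 h, is limited by counting error.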
